A study of Mus musculus with 4 samples.

Results

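The replication-dependent histone cluster genes are the genes that supply the bulk of the histone proteins when DNA is copied. Members were the protein-coding genes whose GENCODE M21 symbol starts with Hist1h, Hist2h, Hist3h or Hist4h with 10 or more counts in 2 or more libraries. The annotation lists 67 such genes, of which 64 were in the counted table and 55 passed the count minimum, out of 14554 genes tested and 41214 genes counted. By class there were 6 H1, 13 H2A, 12 H2B, 11 H3 and 13 H4 members, and all 55 had at least 10 counts in every library. Hist1h2bh, Hist1h2bm and Hist2h2bb were not analysed here, and 9 members fell below the minimum with at most 6 counts in any library.

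RNA-seq was done on unstimulated B220+ splenocytes, the spleen cells that carry the B cell form of the surface protein CD45, taken from mice of 2 genotypes with 2 libraries each. The mutant mice, MIZ-1△POZ, carried Miz-1 alleles with a floxed POZ domain and the MB1-Cre transgene, in which the B cell promoter of Cd79a drives the Cre recombinase. Their B cells therefore made a MIZ-1 transcription factor without the domain through which it pairs with itself and with partners. Control mice are labelled MIZ-1WT, both genotypes were on a C57BL/6 background and were young adults, and the cells were enriched with an anti-B220 antibody on magnetic beads rather than sorted to purity. The paper calls the libraries biological duplicates, and neither it nor the labels say how many animals stood behind each. The p-values therefore measure the spread between these libraries.

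Core histones H2A, H2B, H3 and H4 form the protein spool around which DNA winds, and the linker histone H1 binds where DNA enters and leaves it. Most of their genes sit in clusters, lack introns and are switched on at the start of S phase by NPAT, a transcriptional coactivator that is a substrate of cyclin E and CDK2. Their mRNAs end in a short stem-loop instead of a poly(A) tail. That stem-loop is held by the stem-loop binding protein SLBP and marks the mRNA for decay when replication stops. The U7 snRNP acts in the cut that lies just past the stem-loop. Some of the genes also give longer polyadenylated transcripts in cells that do not divide. The libraries were made by depletion of ribosomal RNA, a method that keeps RNA with and without a poly(A) tail.

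Each library held between 43026814 and 46387209 counts on genes. Zbtb17, the gene of MIZ-1, was counted at 47.8 and 46.3 CPM (counts scaled to the size of each library, after TMM normalization) in MIZ-1WT and at 37.3 and 38.0 CPM in MIZ-1△POZ, and a count over the whole gene does not isolate the deleted exons. The female transcript Xist averaged 1.28 CPM in MIZ-1WT and 866 CPM in MIZ-1△POZ, and the Y-linked Ddx3y averaged 359 and 14.2 CPM, so sex and genotype cannot be told apart in any result below. Of 11 B cell markers tested, 7 were lower and 2, Cr2 and Ighm, were higher in MIZ-1△POZ, where 18.9% of all tested genes were lower and 21.1% higher, and Cd79a, part of the B cell receptor, read 336 and 311 CPM in MIZ-1WT and 103 and 135 CPM in MIZ-1△POZ. All 16 macrophage markers were higher, with summed levels of 981 and 1306 CPM in MIZ-1WT against 5831 and 3646 CPM in MIZ-1△POZ, none of them at 0 in any library. In bulk RNA, more cells of a kind and more RNA per cell cannot be told apart, which applies to every level given here.

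The stem-loop sites show how alike the members are at their 3′ ends and where they differ. A 16-base stem-loop of the form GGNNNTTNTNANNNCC was searched for after the stop codon in the GENCODE M21 transcripts (GRCm38), and 39 of the 55 members held it, between 21 and 54 bases past the stop codon. In the sites below the stem-loop is in capitals with 5 flanking bases on either side, and the members shown are examples of genes that rose and fell with the same loop or with different ones.
Hist1h1c: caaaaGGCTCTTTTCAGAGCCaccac
Hist1h2bk: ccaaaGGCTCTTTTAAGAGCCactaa
Hist1h3c: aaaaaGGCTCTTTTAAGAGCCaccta
Hist1h3g: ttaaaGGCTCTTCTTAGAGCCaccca
Hist1h4f: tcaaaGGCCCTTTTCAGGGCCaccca
Hist1h4c: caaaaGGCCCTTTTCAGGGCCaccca
Hist1h4i: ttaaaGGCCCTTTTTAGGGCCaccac
Hist2h4: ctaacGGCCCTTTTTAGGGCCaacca
The form of Hist1h1c was the most frequent, in 19 members from H1, H2A, H2B and H3, and the form of Hist1h3c and Hist1h2bk was found in 6. H4 genes had stems of their own, which opened with GGCCC in 10 of the 12 H4 sites found and with GGTCC in Hist1h4b and Hist1h4j. Hist1h4f and Hist1h4c shared the same 16 letters and are described below with opposite directions.

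Most histone cluster genes were more abundant in the MIZ-1△POZ libraries. With edgeR's quasi-likelihood test and an adjusted p under 0.05, 38 of 55 members (69.1%) were higher, while 21.1% of all tested genes were called higher. Another 8 members (14.5%) were lower, against 18.9% of all tested genes, and 9 passed in neither direction. The median log2 fold change was 0.75 over the members and -0.0064 over all tested genes, with members ranging from -1.51 to 2.15. With the log2 fold change limit of the study, at least 0.6 either way, taken here together with an unadjusted p under 0.05, 33 members were higher and 3 lower, and the shares of all tested genes were 15.0% and 5.30%. The values of both MIZ-1△POZ libraries lay above both MIZ-1WT values for 44 members and below them for 8, where 37.2% and 37.6% of all tested genes were separated in those directions. Leaving out each library in turn put the median over the members between 0.72 and 0.82. Fewer of all tested genes passed in each of those fits, so a call lost there is not by itself a change in level.

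**Figure D1:**
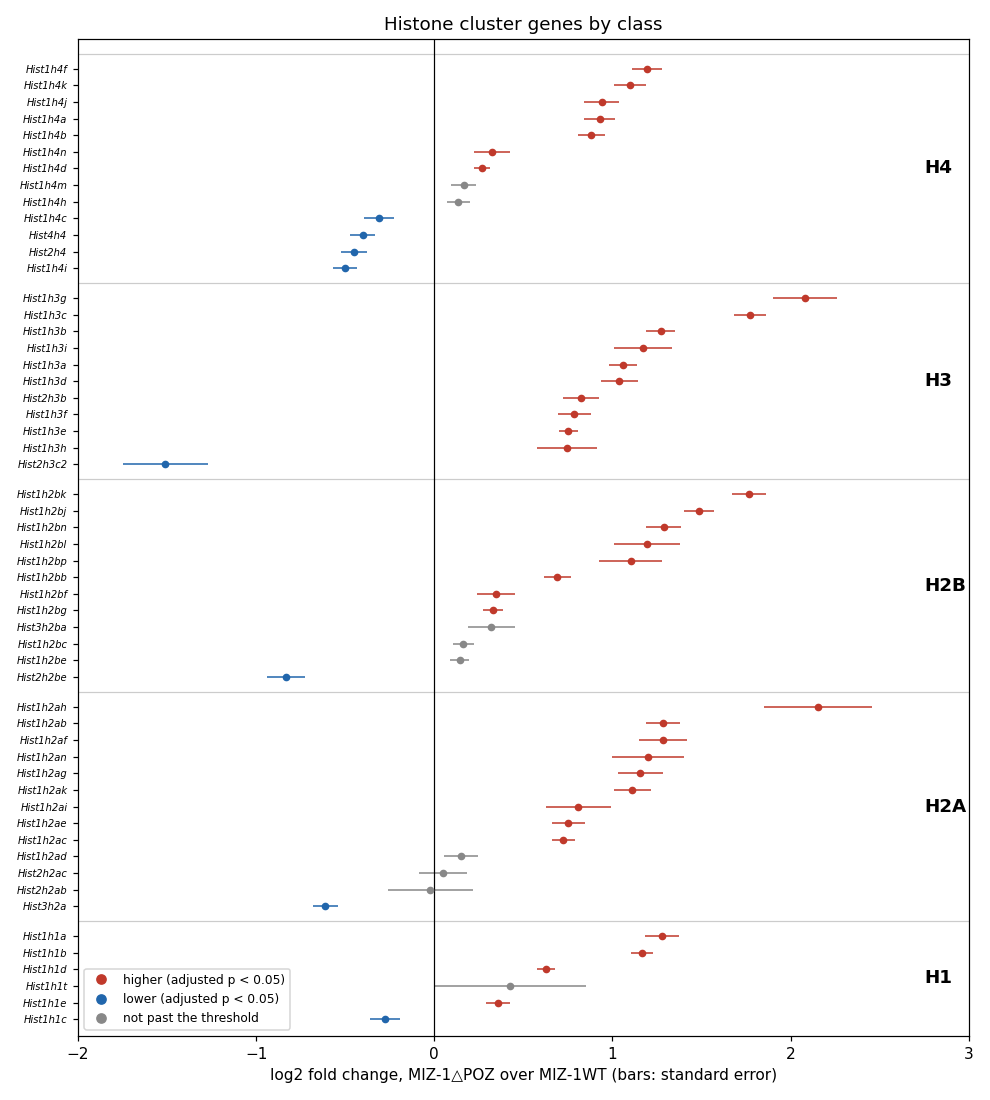
Log2 fold change of each of the 55 histone cluster genes, MIZ-1△POZ over MIZ-1WT, with its standard error, ordered within class; colours mark genes higher, lower or not past an adjusted p of 0.05. Each class has most of its points to the right of 0 and at least 1 gene to the left that passed the test, with 4 such genes in H4.

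Summed over the members, the histone cluster genes took 1887 and 1992 CPM in MIZ-1WT and 2488 and 2470 CPM in MIZ-1△POZ, a ratio of 1.28. H3 had the largest ratio of the 5 classes, with 160 ± 5.28 CPM (SD, n = 2) in MIZ-1WT and 312 ± 17.2 CPM in MIZ-1△POZ, a ratio of 1.95. For H2A the sums were 145 ± 8.48 and 205 ± 5.47 CPM (1.41), and for H2B 292 ± 6.88 and 408 ± 7.15 CPM (1.40). The linker histones summed to 692 ± 19.6 and 842 ± 28.6 CPM (1.22). H4 had the smallest ratio, with 651 ± 34.5 and 712 ± 11.9 CPM (1.09). In every class both MIZ-1△POZ sums lay above both MIZ-1WT sums, and no test was made of a sum. Reads without a unique alignment are missing from the sums too. Over the members with at least 50% of their windows of 50 bases unique among the annotated transcripts, the log2 ratio of the summed levels was 0.13 for H2A, 0.27 for H2B and 0.069 for H4, where it was 0.50, 0.48 and 0.13 over all members of those classes.

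**Figure D2:**
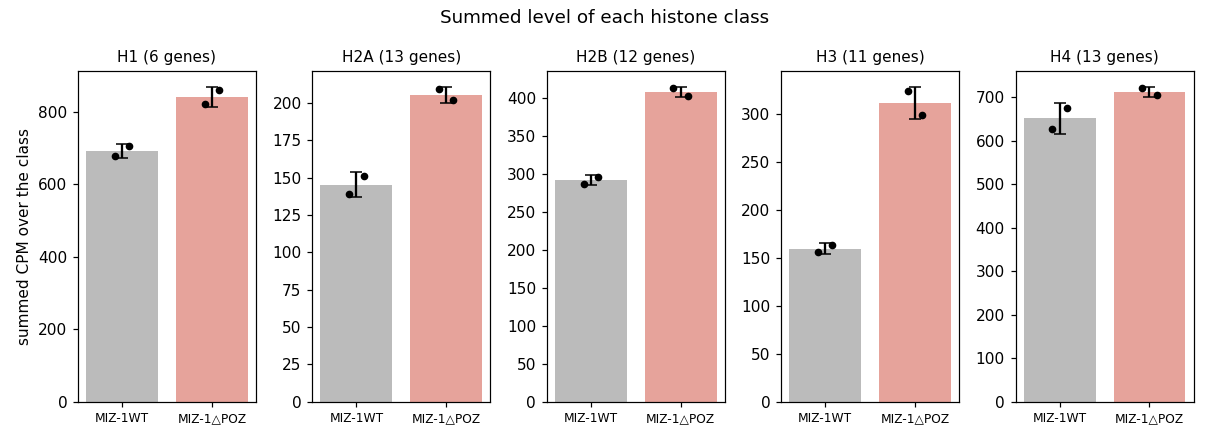
Summed CPM of the tested members of each histone class in the 4 libraries (points), with the mean (bar) and SD (error bar, n = 2) per genotype; each panel has its own axis from 0. The mean H3 sums were 160 and 312 CPM, the mean H4 sums 651 and 712 CPM.

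Linker histone H1 genes were led in level by Hist1h1c, a variant that many resting tissues also express. It was counted at 382 and 401 CPM in MIZ-1WT and 297 and 350 CPM in MIZ-1△POZ, which gives a log2 fold change of -0.28 ± 0.08 (SE; edgeR adjusted p = 0.0458). All the other tested H1 genes had positive fold changes, 4 of them past the threshold. Hist1h1a had 47.2 and 53.8 CPM in MIZ-1WT and 132 and 113 CPM in MIZ-1△POZ, a change of 1.28 ± 0.10 (edgeR adjusted p = 0.00109). Hist1h1b had 46.3 and 50.6 CPM against 108 and 109 CPM, a change of 1.16 ± 0.06 (edgeR adjusted p = 0.000739). Both genes were more than doubled with no overlap between genotypes, and neither shares a 50-base window with another annotated transcript. Hist1h1d had 106 and 112 CPM against 170 and 167 CPM (log2 fold change 0.63 ± 0.05), and Hist1h1e rose by 0.36 ± 0.07. Hist1h1t, the testis-specific member, was counted at no more than 0.546 CPM in any library and did not pass the test.

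The make-up of the H1 pool differed between the genotypes accordingly. Hist1h1c gave 56.6% ± 0.366 (SD, n = 2) of the summed H1 CPM in MIZ-1WT and 38.4% ± 3.10 in MIZ-1△POZ. Hist1h1a went from 7.29% ± 0.465 to 14.6% ± 2.04 and Hist1h1b from 7.0% ± 0.241 to 12.9% ± 0.308. The call of Hist1h1c was lost without MIZ-1△POZ replicate 1 (log2 fold change -0.16), without MIZ-1WT replicate 1 (-0.31) or without MIZ-1WT replicate 2 (-0.24), and also with library totals in place of TMM (-0.22) or a filter at a mean of 1 CPM (-0.26).

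Among the 13 H2A genes 9 rose and 1 fell, with a median log2 fold change of 0.81. Hist2h2ac had the highest level per kilobase of exon (85.8 CPM per kb in MIZ-1WT, 88.7 in MIZ-1△POZ). Its libraries read 38.5 and 50.7 CPM in MIZ-1WT and 43.5 and 48.8 CPM in MIZ-1△POZ, so that the genotypes overlapped (log2 fold change 0.05 ± 0.14), and the sign turned to -0.24 once GC content and exon length were corrected for. Hist1h2ab was next in level and read 15.2 and 13.9 CPM against 37.9 and 32.9 CPM, a change of 1.28 ± 0.10 (edgeR adjusted p = 0.00108). Hist1h2ak read 10.6 and 9.37 CPM against 22.8 and 20.5 CPM, a change of 1.11 ± 0.10 (edgeR adjusted p = 0.00172). Hist1h2ac read 17.9 CPM in both MIZ-1WT libraries and 29.5 and 29.8 CPM in MIZ-1△POZ (0.72 ± 0.07, edgeR adjusted p = 0.00157), and it overlaps Gm24991 on its own strand. These 3 genes lay wholly above their MIZ-1WT values.

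Hist3h2a, on chromosome 11 outside the large clusters, was the H2A gene that fell. It read 25.4 and 26.5 CPM in MIZ-1WT and 17.2 and 16.8 CPM in MIZ-1△POZ, a change of -0.61 ± 0.07 (edgeR adjusted p = 0.00266). It shares bases with Trim17 on its own strand, and reads in the overlap cannot be assigned to either. Its share of the H2A sum went from 17.9% ± 0.517 to 8.28% ± 0.0851 while that of Hist1h2ab went from 10.1% ± 1.19 to 17.2% ± 1.26. Hist1h2ah, singled out after its values were seen because its fold change was the highest of all members, read only 0.390 and 0.309 CPM in MIZ-1WT and 1.79 and 1.34 CPM in MIZ-1△POZ (2.15 ± 0.30). Only 9.27% of its 50-base windows were its own among the annotated transcripts, so that few of its bases could be counted.

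H2B genes spanned a similar range, with 8 of 12 higher, 1 lower and a median log2 fold change of 0.52. The largest relative rise was that of Hist1h2bk, from 8.89 and 8.73 CPM to 32.0 and 27.9 CPM, a change of 1.76 ± 0.10 (edgeR adjusted p = 0.000739). Hist1h2bj went from 14.7 and 16.7 CPM to 44.7 and 43.2 CPM, a change of 1.49 ± 0.08 (edgeR adjusted p = 0.000739). Hist1h2bn went from 6.67 and 6.19 CPM to 15.3 and 16.1 CPM, a change of 1.29 ± 0.10 (edgeR adjusted p = 0.00109). In contrast, the member with the highest level per kilobase, Hist1h2bb, changed less, from 53.6 and 60.0 CPM to 95.6 and 87.7 CPM (0.69 ± 0.08). Hist1h2bg moved by 0.33 ± 0.06, from 39.1 and 37.7 CPM to 48.7 and 47.9 CPM, a call that was lost without MIZ-1WT replicate 2 (0.31) and with the GC and length correction, where the change was 0.059. Few bases could be counted in some of these risers, as 13.6% of the 50-base windows of Hist1h2bn, 25.8% of those of Hist1h2bk and 40.6% of those of Hist1h2bj were unique among the transcripts.

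Hist2h2be, which in many tissues is made as a polyadenylated mRNA outside S phase, was the H2B gene that fell. It read 24.8 and 27.6 CPM in MIZ-1WT and 13.5 and 15.9 CPM in MIZ-1△POZ, a change of -0.83 ± 0.11 (edgeR adjusted p = 0.0037). Every 50-base window of Hist2h2be was unique among the transcripts. Its share of the H2B sum went from 8.95% ± 0.466 to 3.60% ± 0.489, while that of Hist1h2bj went from 5.37% ± 0.371 to 10.8% ± 0.0688.

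H3 had the largest share of genes called higher of any class, 10 of 11 (90.9%), with a median log2 fold change of 1.04. By sign alone, 11 of 12 H2B genes and 10 of 11 H3 genes had positive fold changes. The 3 with the highest level per kilobase rose by between 0.75 and 1.06. Hist1h3e read 49.7 CPM in both MIZ-1WT libraries and 86.0 and 81.3 CPM in MIZ-1△POZ, a change of 0.75 ± 0.05 (edgeR adjusted p = 0.000971). Hist1h3f went from 43.2 and 50.9 CPM to 84.6 and 77.7 CPM (0.79 ± 0.09), and Hist1h3a from 17.6 and 18.6 CPM to 39.5 and 35.9 CPM (1.06 ± 0.08). Hist1h3c rose the most of the H3 genes named by the rule, from 9.45 and 9.97 CPM to 35.0 and 31.3 CPM, a change of 1.77 ± 0.09 (edgeR adjusted p = 0.000739). Hist1h3b went from 12.4 and 11.7 CPM to 30.2 and 28.0 CPM (1.27 ± 0.08, edgeR adjusted p = 0.000799). Hist1h3g, singled out after its values were seen for its rare stem-loop, went from 2.25 and 2.05 CPM to 10.2 and 8.0 CPM (2.08 ± 0.18).

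Hist2h3c2, on chromosome 3, went the other way. It read 2.02 and 1.90 CPM in MIZ-1WT and 0.777 and 0.592 CPM in MIZ-1△POZ, the most negative change of any member at -1.51 ± 0.24 (edgeR adjusted p = 0.00654). Of its 50-base windows 36.5% were unique among the transcripts, against 26.6% in Hist1h3e and 53.0% in Hist1h3c, and its level per kilobase was 1.92 CPM in MIZ-1WT where that of Hist1h3e was 59.4.

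All H4 genes encode the same protein, and yet their transcripts moved in both directions. Of 13 members 7 rose, 4 fell and 2 did not pass, with a median log2 fold change of 0.27. Hist1h4f read 26.7 and 29.8 CPM in MIZ-1WT and 68.2 and 61.1 CPM in MIZ-1△POZ, a change of 1.19 ± 0.08 (edgeR adjusted p = 0.000961). Hist1h4k, with 28.5% of its windows unique, went from 11.4 and 11.8 CPM to 26.3 and 23.3 CPM (1.10 ± 0.09). Hist1h4b went from 14.5 and 13.9 CPM to 27.1 and 25.3 CPM (0.88 ± 0.08), and it lies opposite 4930558J22Rik, whose reads cannot be told apart from its own unless strand was used in counting. Hist1h4f gave 4.34% ± 0.102 of the H4 sum in MIZ-1WT and 9.07% ± 0.553 in MIZ-1△POZ. Hist1h4d, also called higher (0.27 ± 0.05), was a larger part of the pool, at 17.4% ± 1.36 and 19.1% ± 0.540.

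The most abundant H4 transcript by CPM, Hist1h4c, fell. It read 167 and 197 CPM in MIZ-1WT and 145 and 149 CPM in MIZ-1△POZ, a change of -0.31 ± 0.08 (edgeR adjusted p = 0.0308), and its share of the H4 sum went from 28.0% ± 1.80 to 20.7% ± 0.713. Hist1h4i read 39.8 and 38.9 CPM against 28.8 and 26.8 CPM, a change of -0.50 ± 0.07 (edgeR adjusted p = 0.00383). The other two lie on chromosomes 3 and 6. Hist2h4 went from 36.1 and 34.3 CPM to 24.7 and 26.9 CPM (-0.45 ± 0.07), and Hist4h4 from 53.0 and 58.4 CPM to 40.8 and 43.5 CPM (-0.40 ± 0.07). Hist1h4h, the H4 gene with the highest level per kilobase, read 89.2 and 99.2 CPM against 106 and 101 CPM and did not pass (0.14 ± 0.07), while under the GC and length correction it was called lower at -0.21 (edgeR adjusted p = 0.0399). The calls of Hist1h4c and Hist4h4 were lost without MIZ-1WT replicate 2 (-0.19 and -0.33), and that of Hist2h4 without MIZ-1WT replicate 1 (-0.41). That of Hist1h4c was also lost with library totals in place of TMM (-0.25).

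**Figure D3:**
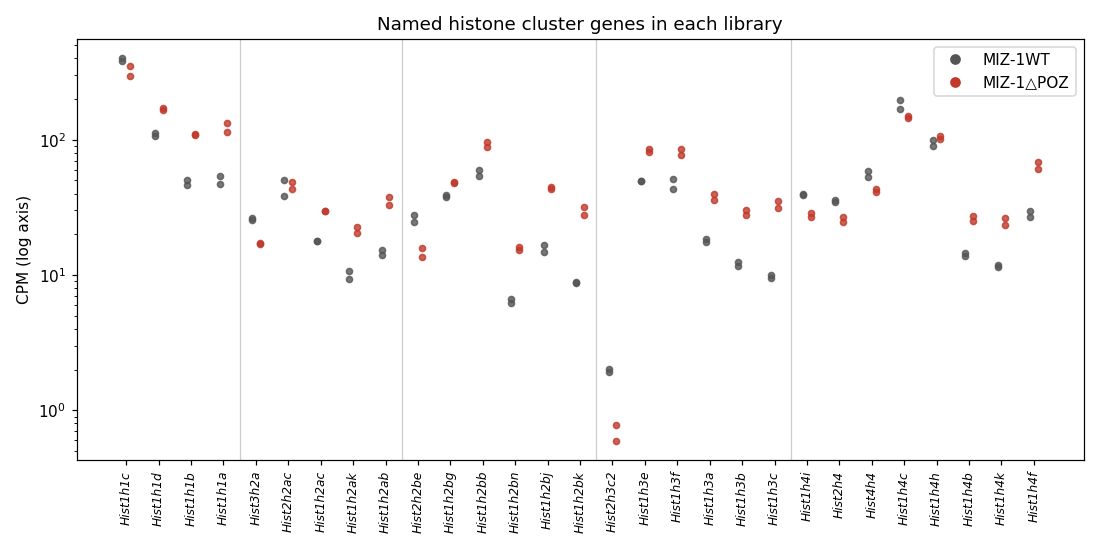
CPM (log axis) of the histone cluster genes named by the rule in each MIZ-1WT and MIZ-1△POZ library, ordered by class (H1, H2A, H2B, H3, H4, parted by lines) and by fold change within class. Within each class the genotypes cross over from left to right, from genes that fell, such as Hist2h3c2 at 2.02 and 1.90 against 0.777 and 0.592 CPM, to genes that rose, such as Hist1h3c.

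The members that fell had features in common that the choice of members did not use. The 55 members were short (median exon length 572 nt, against 3914 nt over all tested genes) and 52 of them had a single exon. The 8 that fell had longer transcript models, from 727 to 2863 nt with a median of 1595 nt, where the 38 that rose had a median of 498 nt and a range from 312 to 7425 nt. Of those 8, 7 have a stem-loop in their model followed by at least 330 further bases, and none was found in the model of Hist2h2be. The model of Hist4h4 runs 2445 nt past its stem-loop and that of Hist3h2a 1643 nt.

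Grouped by model, the 18 members whose annotated transcript ends within 100 nt of the stem-loop had 14 higher and 0 lower (0 by edgeR's unadjusted p under 0.05 and 0 by DESeq2), with a median log2 fold change of 1.08 and sums of 379 and 413 CPM against 672 and 625 CPM. The 21 members whose model runs over 100 nt past it had 11 higher and 7 lower, a median of 0.33 and sums of 1304 and 1363 CPM against 1410 and 1461 CPM. For 16 members no stem-loop was found in the model, and 13 of those were higher and 1 lower with a median of 1.14. In 14 of these 16 the model stops less than 70 bases after the stop codon, the farthest that a stem-loop ended in the other members, so no call on a stem-loop can be made. The models of Hist1h2bc and Hist2h2be run 742 and 2192 bases past the stop codon, and neither gene rose. Only the exact form given above was searched for in the annotated transcripts, so these genes can still have another form of the stem-loop. Reads were counted per gene, so a long model adds reads from both the short replication-dependent form and any longer transcript, and their parts were not tested. These limits were set after earlier results were known, and the groups are given as a description with no test.

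**Figure D4:**
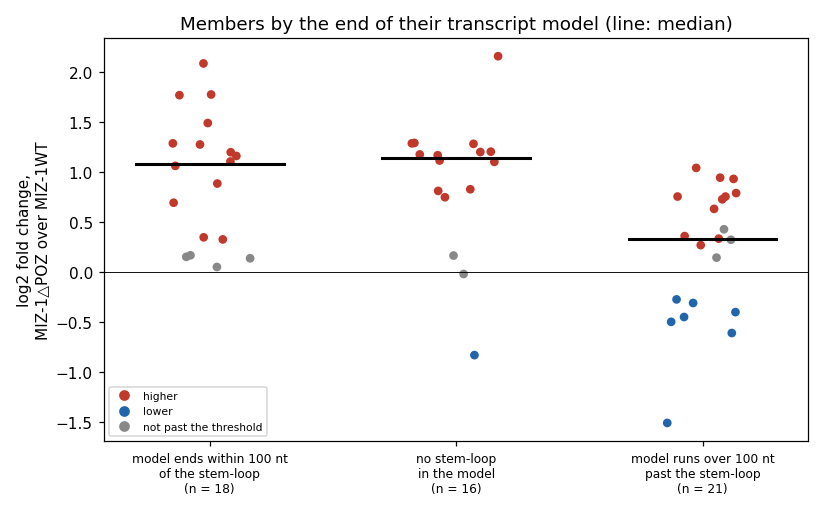
Log2 fold change, MIZ-1△POZ over MIZ-1WT, of the 55 members by where the GENCODE M21 transcript model ends; colours mark the edgeR call at an adjusted p of 0.05, and black lines the medians (1.08, 1.14 and 0.33 from left to right). Of the 8 members that fell, 7 are in the group with long models.

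Length went together with other features. The Spearman correlation with the log2 fold change across the 55 members was -0.52 for exon length, 0.52 for GC content and -0.46 for the share of 50-base windows that are unique among the annotated transcripts. These are descriptions across genes that share libraries and sequence. Of the 31 members with at least 50% of their windows unique, 17 rose and 7 fell with a median of 0.36. Of the 24 members below that, 21 rose and 1 fell with a median of 1.13. Reads without a unique alignment, 42.8% to 44.1% of all in each library, were not counted, so members with few unique windows are represented by fewer bases. With offsets for GC content and exon length, 33 of the members that rose and all 8 that fell were still called, Hist1h4h was added to those lower, while the median went from 0.75 to 0.57, the H2B median from 0.52 to 0.24 and the H4 median from 0.27 to -0.03. With only the members that had at least 50% of their windows unique, the H2A median was 0.05, that of H2B 0.32 and that of H4 0.14. For H2A these were Hist1h2ac, Hist1h2ae, Hist2h2ab, Hist2h2ac and Hist3h2a.

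Position in the genome also parted the members. The Hist1 cluster on chromosome 13 held 46 members, of which 37 rose and 3 fell, with a median log2 fold change of 0.91. Of the 6 Hist2 members on chromosome 3, 1 rose and 3 fell, with a median of -0.24. The gene that rose there was Hist2h3b, which lies opposite Gm20628. Of the 3 genes of the Hist3 and Hist4 loci 0 rose (0 by edgeR's unadjusted p under 0.05 and 0 by DESeq2) and 2 fell, Hist3h2a and Hist4h4. On chromosome 13 (GRCm38) the members formed 3 blocks. Block 1, chr13:21715763-21832196, had 12 of 13 higher and 0 lower (0 by edgeR's unadjusted p under 0.05 and 0 by DESeq2), and its summed level went from 151 and 162 CPM to 301 and 288 CPM. Block 2, chr13:22035164-22043676, holds Hist1h2ah and Hist1h2bk and had 4 of 5 higher, with Hist1h4i as the member that fell. Block 3, chr13:23531050-23764406, had 21 of 28 higher and 2 lower, Hist1h1c and Hist1h4c, and sums of 1475 and 1549 CPM against 1910 and 1903 CPM.

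H2A and H2B genes often lie head to head and share the stretch between their starts. In 9 such pairs both genes were tested, with 176 to 302 bases between their annotated starts, and in 6 of them both genes rose. The pair with the largest changes was Hist1h2ah and Hist1h2bk (2.15 and 1.76). Hist1h2ag and Hist1h2bj had changes of 1.16 and 1.49, and Hist1h2ak and Hist1h2bn of 1.11 and 1.29. In the pair on chromosome 3, Hist2h2ac did not pass (0.05) and Hist2h2be fell (-0.83). Hist1h2ac rose by 0.72 while its partner Hist1h2bc did not pass (0.16). The difference within a pair was not tested.

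The stretch shared by Hist1h2bk and Hist1h2ah is shown because both genes rose the most in their class, and the promoter of Hist3h2a because that gene fell and its promoter also holds the octamer and CCAAT, but not TATAAA. Both are RefSeq promoters of GRCm38.p6, 250 bases before to 50 bases after the start, with every match on either strand of CCAAT (a box bound by NF-Y), of TATAAA (the TATA box), of ATTTGCAT (the octamer known from H2B promoters) and of AAACACA (the H1 box) in capitals.
Hist1h2bk, chr13:22035571-22035870, plus strand: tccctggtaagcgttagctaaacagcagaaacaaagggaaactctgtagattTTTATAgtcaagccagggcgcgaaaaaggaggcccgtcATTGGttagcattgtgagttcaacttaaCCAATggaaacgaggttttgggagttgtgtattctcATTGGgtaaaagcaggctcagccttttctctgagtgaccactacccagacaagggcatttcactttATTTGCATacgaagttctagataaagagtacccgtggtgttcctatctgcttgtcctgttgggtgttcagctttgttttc
Hist3h2a, chr11:58954435-58954734, plus strand: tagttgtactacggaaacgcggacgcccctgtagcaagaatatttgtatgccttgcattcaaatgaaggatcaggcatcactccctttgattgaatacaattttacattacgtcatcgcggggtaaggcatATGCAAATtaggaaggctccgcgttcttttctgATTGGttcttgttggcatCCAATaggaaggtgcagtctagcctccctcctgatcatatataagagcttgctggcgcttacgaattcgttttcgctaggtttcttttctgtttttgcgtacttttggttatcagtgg
Of the 55 members 50 matched a RefSeq promoter, all but Hist1h2bc, Hist1h3a, Hist1h3f, Hist2h2be and Hist2h4. CCAAT was found in 41 of the 50 (82.0%) and in 37.4% of all 32851 promoters of that length, in every matched H1, H2A, H2B and H3 member and in 3 of 12 H4 members. TATAAA was found in 32 members (64.0%, against 13.6% of all), namely 26 of 36 matched members that rose and 1 of 6 that fell. Only that exact run was searched for, so a promoter counted as without it can still hold another form of the TATA box. The octamer was found in 9 members (18%, against 1.74%), 6 of them H2A, 3 H2B and none H1, H3 or H4. AAACACA was found in 6 members, 5 of them among the 6 H1 genes. Promoters of head-to-head genes overlap, so the same match can count for both, matches of different motifs may overlap, and a match is a run of letters anywhere in the window.

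Genes of S phase and mitosis were higher alongside the histone cluster genes. Of all tested genes, 21.1% were called higher and 18.9% lower. Of 28 S phase genes 26 rose (92.9%), 1 fell (3.57%) and the median log2 fold change was 0.78. Rrm2, a subunit of the reductase that makes deoxynucleotides, read 14.9 and 15.1 CPM in MIZ-1WT and 50.1 and 43.1 CPM in MIZ-1△POZ (1.64 ± 0.09). Thymidine kinase Tk1 rose by 1.28 ± 0.07, and Cdc6, which loads the replicative helicase, by 1.97 ± 0.11. Cdt1, named after its values were seen as the S phase gene that fell, changed by -0.28 ± 0.08 and kept its call in only 1 of the 4 fits that left out a library, that without MIZ-1△POZ replicate 1. All 16 mitosis genes rose, with a median of 1.96, and Mki67 went from 62.0 and 58.2 CPM to 267 and 261 CPM (2.13 ± 0.05). The mitosis median thus lay above that of every histone class.

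In the list for histone mRNA transcription and 3′ end processing, 0 of 16 tested genes were higher by edgeR's adjusted p. Its unadjusted p under 0.05 gave 1 and DESeq2 gave 0. Of all tested genes, 21.1% were higher and 18.9% lower by the adjusted p. In the list 2 genes (12.5%) were lower, and the median log2 fold change was -0.07. Slbp, the stem-loop binding protein, changed by 0.12 ± 0.07 and Npat by -0.08 ± 0.05, neither past the threshold. Lsm11, a U7 snRNP subunit, fell by 0.35 on the log2 scale (SE 0.07) and Mif4gd, an SLBP partner in translation, by 0.28 (SE 0.05). Neither of these 2 calls was made without MIZ-1WT replicate 1 or without MIZ-1WT replicate 2. Lsm11 was then at -0.32 and -0.37, and Mif4gd at -0.26 and -0.29. Of 20 histone chaperones and assembly factors 9 rose (45.0%), 1 fell (5.0%) and the median was 0.06. The 3 with the smallest p act in replication-coupled assembly, namely Chaf1a (1.71 ± 0.12) and Chaf1b (0.93 ± 0.09) of the CAF-1 complex and Asf1b (0.98 ± 0.09). The gene that fell was Nap1l1 (-0.22 ± 0.06), named after its values were seen, and its call was also lost with the GC and length correction (-0.16), with library totals in place of TMM (-0.16), with a replicate block (-0.22) and without MIZ-1△POZ replicate 1 (-0.15). Without MIZ-1WT replicate 1, and likewise without MIZ-1WT replicate 2, fewer genes of the list passed, as did fewer of all tested genes.

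Histone genes outside the clusters, whose transcripts are polyadenylated and made throughout the cell cycle, had no common direction. Of 10 tested, 4 were higher and 1 lower, with a median log2 fold change of 0.14 and summed levels of 1466 and 1495 CPM against 1315 and 1361 CPM. H2afx, which is marked at DNA breaks and whose gene also yields a stem-loop mRNA, went from 21.5 and 19.2 CPM to 55.0 and 52.7 CPM (1.40 ± 0.08). H1f0 went from 2.04 and 2.95 CPM to 10.9 and 8.27 CPM (1.94 ± 0.23). H3f3a, which encodes the replacement histone H3.3, fell from 590 and 558 CPM to 342 and 349 CPM (-0.73 ± 0.05), while H3f3b, for the same protein, did not pass (-0.0017 ± 0.07).

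**Figure D5:**
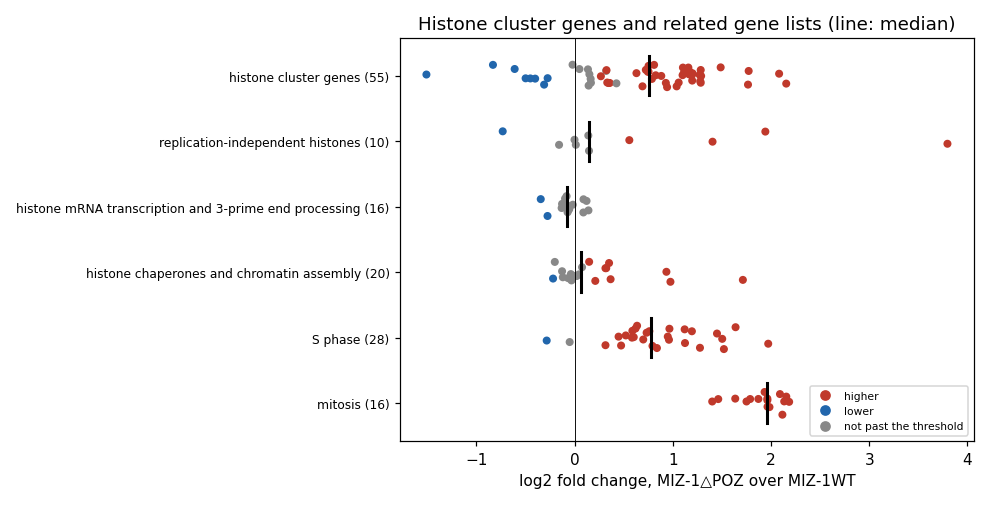
Log2 fold change, MIZ-1△POZ over MIZ-1WT, of the 55 histone cluster genes and of 5 related lists (tested genes in brackets); each point is a gene, colours give the edgeR call at an adjusted p of 0.05 and black lines the medians. The medians are 0.75 for the histone cluster genes, 0.78 for S phase, 1.96 for mitosis and between -0.07 and 0.14 for the other three lists.

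Markers of other cells and cell states are given beside these genes, and 21.1% of all tested genes were higher. Of 8 germinal center markers 7 rose and Bcl6 fell, with summed levels of 155 and 160 CPM against 287 and 235 CPM, and Gcsam went from 3.69 and 5.45 CPM to 26.5 and 29.2 CPM. Of 8 plasma cell markers 6 rose, with sums of 912 and 1235 CPM against 2741 and 2580 CPM. Of 12 T cell markers 2, Cd28 and Cd4, rose, a share of 16.7%, with sums from 71.5 to 89.1 CPM in MIZ-1WT and from 91.8 to 98.1 CPM in MIZ-1△POZ. Ltf was the sole neutrophil marker of 6 tested to rise (16.7%), the sums ran from 4.71 to 14.9 CPM and from 8.99 to 17.0 CPM with overlap, and Ly6g, Elane and Prtn3 were at 0 counts in at least 1 library. Epor and Ermap rose among 10 tested erythroid markers (20.0%), with sums from 51.0 to 63.4 CPM and from 44.1 to 121 CPM. The part of these cells in the histone levels was not tested.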

How the data were processed

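The data were RNA-seq counts from B220+ splenocytes of MIZ-1WT and MIZ-1△POZ mice, 2 libraries per genotype, grouped by the genotype in the labels. The authors trimmed the reads with Trimmomatic, mapped them to mm10 with TopHat2 (version 2.1.0 in the submitters' processing notes), used HTSeq to count them per Ensembl gene and deposited the counts raw, with no pooling. The strand setting and the Ensembl release are not given in the sources used here. HTSeq's summary lines entered neither the library sizes nor any test. They put reads that matched no counted feature at 27.2% and 25.5% of the table in MIZ-1WT and at 21.6% and 21.1% in MIZ-1△POZ. Reads lacking a unique alignment made up 42.8% to 44.1% and ambiguous reads 0.281% to 0.302%.

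Genes that reached 10 counts in 2 or more libraries entered the quasi-likelihood test of edgeR version 4.0.16 (R version 4.3.3), with TMM scaling and p-values adjusted by Benjamini-Hochberg over the 14554 genes. The dispersion common to all was 0.00848, and the SE is the log2 fold change divided by the root of the F statistic. On simulated counts over these 14554 genes, with 200 genes changed by a fold of 2, edgeR recovered 97.5% with 9 false calls among 204. DESeq2 version 1.42.0 recovered 89.0% with 6 among 184. The simulation gave every gene the common dispersion, left genes with low counts unchanged and changed far fewer genes than were called here. Its rates therefore need not hold for the members. The lowest count of a member in any library was 13, and the dispersion is the spread beyond counting error.

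The members and the gene lists were chosen with earlier results of these data known. Named genes were set by a rule. In each histone class they were the 3 with the highest mean CPM per kb of exon and the 3 with the smallest p among those past the threshold in each direction. In each related list they were at most 3 with the smallest p past the threshold, and Zbtb17 was the check of the labels. Not every gene the rule gives is reported here. Of the 18 genes of the processing list 16 were matched by symbol, as were 11 of 12 B cell markers. Exon length, GC content and stem-loops came from GENCODE M21, and promoters from RefSeq (GRCm38.p6). A window of 50 nt, the read length, counted as unique when no annotated transcript of another locus held it. The replicate numbers of the labels do not say that libraries were paired, and same-numbered libraries did not deviate together (correlation -0.069). Alternatives were other normalizations and filters, DESeq2, the fold limit of the study with an unadjusted p, a replicate block, offsets for GC content and length, and leaving out each library.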

Additional observations from a re-analysis of the deposited data

Results flagged for a closer look

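Hist3h2bb-ps, a processed pseudogene of the H2B family and not a member since it is not protein-coding, had a log2 fold change of 0.62 ± 0.18 (edgeR adjusted p = 0.0417). It had 130 and 167 counts in MIZ-1WT and 263 and 227 counts in MIZ-1△POZ, and it drew attention as a signal above the control libraries in a row outside the comparisons.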

How the results depend on the processing

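The 38 higher and 8 lower members became 36 and 8 with DESeq2 and 38 and 8 with its size factors or without a filter. Members with unique windows, chosen after seeing the data in place of windows unique in the genome (not run), gave 17 higher of 31, and medians of 0.36 (all), 0.048 (H2A), 0.32 (H2B) and 0.14 (H4), with summed log2 ratios of 0.13 (H2A), 0.27 (H2B), 0.069 (H4) and 0.25 (all). The fold limit of the study with an unadjusted p gave 3 lower. With GC and length offsets the medians were 0.57 (all), 0.63 (H2A), 0.24 (H2B), 0.76 (H3) and -0.032 (H4), Hist2h2ac was at -0.24, Hist1h4h at -0.21, and 2 replication-independent histones were lower.

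Library totals without TMM shifted the median of all tested genes to 0.05, with 3606 genes higher and 2035 lower where TMM gave 3076 and 2746. The medians were then 0.81 (all), 0.59 (H1), 0.87 (H2A), 0.58 (H2B), 1.10 (H3) and 0.33 (H4) and the summed log2 ratios 0.34 (H1), 0.54 (H2B), 0.19 (H4) and 0.41 (all), with 40 members higher and 6 lower. The processing list had 1 gene higher, and the chaperone and S phase lists had 0 lower. A mean of at least 1 CPM gave an H1 median of 0.65 and 1 processing gene higher, and no filter gave medians of 0.75 (H2A) and 0.66 (H2B).

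With a replicate block 37 members were higher and 8 lower, and 0 chaperones were lower. The block changed no other call of a named member. The block with GC and length offsets gave 31 and 8, medians of 0.57 (all), 0.63 (H2A), 0.24 (H2B), 0.76 (H3) and -0.033 (H4), 2 replication-independent histones lower and 0 chaperones lower, with Hist2h2ac at -0.23 and Hist1h4h at -0.22.

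Leaving out each library in turn leaves 1 library assumed to vary like the others, and fewer of all tested genes passed in each such fit. The medians ran from 0.72 to 0.82 (all), 0.51 to 0.73 (H1), 0.73 to 0.95 (H2A), 0.48 to 0.60 (H2B), 0.95 to 1.07 (H3) and 0.23 to 0.27 (H4), and the summed log2 ratios from 0.25 to 0.32 (H1), 0.44 to 0.56 (H2A), 0.46 to 0.51 (H2B), 0.91 to 1.02 (H3), 0.08 to 0.19 (H4) and 0.32 to 0.39 (all). Higher and lower genes ran from 23 to 26 and 0 to 1 (S phase), 4 to 9 and 0 to 1 (chaperones), 0 to 1 and 0 to 2 (processing) and 3 to 5 and 1 (replication-independent). Hist2h2ac ran from -0.14 (without MIZ-1WT replicate 1) to 0.26, with -0.027 without MIZ-1△POZ replicate 2. The causes of these shifts were not tested, apart from the smaller member set.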

Other observations

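Other rows with histone cluster symbols are annotated as pseudogenes. Hist1h2al, a processed pseudogene, had 266 counts in MIZ-1WT replicate 1 and 6 in replicate 2, and 406 counts in MIZ-1△POZ replicate 1 and 41 in replicate 2, so that the libraries of one genotype lay farther apart than the genotypes (log2 fold change 0.60 ± 1.36). Hist1h2aj had no more than 3 counts in any library.

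The 9 protein-coding members below the count minimum were Hist1h2aa, Hist1h2ba, Hist1h2ao, Hist1h2ap, Hist1h2bq, Hist1h2br, Hist2h2aa1, Hist2h2aa2 and Hist2h3c1. For 6 of them no more than 11.3% of the 50-base windows were unique among the annotated transcripts, and Hist2h2aa2 had no unique window. Hist1h2aa, Hist1h2ba and Hist2h3c1, with 97.7%, 61.8% and 65.3% of their windows unique, had 0 counts in all 4 libraries.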
